A study of Mus musculus with 22 samples.

Results

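The clustered protocadherins are 57 of the 21995 genes counted in whole mouse spinal cord, 14 in the alpha cluster, 22 in the beta cluster and 21 in the gamma cluster. They were taken by name, as every protein-coding gene whose mouse symbol starts with Pcdha, Pcdhb or Pcdhg. The family as a whole was selected on earlier values of Old against Young in these same libraries, in which some beta members were higher, so the counts, fold changes and adjusted p-values given here for its members describe these libraries and are not independent support for a change of the family.

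RNA-seq was performed on spinal cords of 22 C57BL/6 mice, each in a library of its own, to examine what differs in the cord with age and in a mouse model of amyotrophic lateral sclerosis (ALS). For aging, 8 young wild-type males at 3 to 4 months were compared with 8 old wild-type males at 18 to 24 months, all prepared with the Roche KAPA HyperPrep kit. For ALS, 3 wild-type controls were compared with 3 mice carrying SOD1 G93A, a human disease allele present in high copy as a transgene, all at 5 to 6 months and prepared with the Illumina TruSeq kit. Both ALS groups mixed females and males, and sex was not a term in the comparison because the count table does not say which library came from which sex. The SOD1 G93A mice were symptomatic animals of a transgenic line that overproduces the mutant human protein, and no group overproducing the wild-type human protein was part of the comparison. Kit, sex and experiment differ together between the aging and the ALS libraries, so no difference of level between the experiments was tested, and levels set side by side across them are descriptions. Total counts ran from 5078092 to 9358055 in the young libraries, from 5664869 to 9145600 in the old, from 10693060 to 13219797 in the controls and from 9675610 to 11872431 in the SOD1 G93A libraries.

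Clustered protocadherins are cell-surface adhesion proteins of the cadherin superfamily that are made mostly by neurons. In a given neuron only some of the promoters are in use, chosen largely at random with the help of the insulator protein CTCF and cohesin, and the resulting set of proteins lets the branches of that neuron recognise and avoid one another. Each alpha and gamma gene joins its own variable exon, which encodes the extracellular and transmembrane parts, to constant exons shared by its whole cluster and encoding a common cytoplasmic tail, whereas beta genes have no constant exons. The last members of the alpha and gamma clusters, Pcdhac1 and Pcdhac2 and Pcdhgc3, Pcdhgc4 and Pcdhgc5, are called C-type. They are not subject to the same random choice. Mice without the gamma cluster lose many spinal interneurons to cell death.

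The 3 clusters lie one after another on the plus strand of chromosome 18. On GRCm38 the alpha cluster spans chr18:36930184-37187661, the beta cluster chr18:37264938-37524479 and the gamma cluster chr18:37661793-37841873. In the annotation every alpha gene shared 2860 to 2864 exonic bases with the rest of its cluster and every gamma gene 2116 to 3157. The beta genes shared none, apart from 455 bases common to the neighbours Pcdhb21 and Pcdhb22. Counted as 50-base stretches of transcript, the share found in another member of the same cluster was 43.7% to 63.9% for alpha genes, 26.9% to 65.3% for gamma genes and 0% to 11.99% for beta genes, and no such stretch was shared between clusters. Reads from the shared parts were divided among members by RSEM, a program that assigns them by likelihood, so single alpha and gamma values are less certain than the sum over a cluster or than a single beta value. By the number of unshared stretches Pcdha4 is the least certain, since only 578 of its 50-base stretches occurred nowhere else. GENCODE M21 gives the symbol Pcdha11 to a pair of genes, and the one that begins where RefSeq places Pcdha10 (ENSMUSG00000007440) is called Pcdha10 here. One annotated family gene, Pcdhgb8, is a polymorphic pseudogene and not a member.

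The gamma cluster was the most abundant of the 3. Between genes, levels are given in FPKM, a measure scaled for transcript length and library size, as the mean ± SD over the mice of a group. In young mice the highest members were the gamma C-types Pcdhgc4 at 29.4 ± 6.09 FPKM (n = 8) and Pcdhgc3 at 25.5 ± 2.37 FPKM, and Pcdhgc5 stood at 4.86 ± 0.745 FPKM. Pcdhgc4 is the isoform that neuronal survival depends on, and Pcdhgc3 is found in many cell types and binds the Wnt pathway scaffold Axin1. The gamma A genes ran from 1.40 to 6.56 FPKM, with Pcdhga11 at the top, and the gamma B genes from 2.42 to 5.63 FPKM. In the alpha cluster Pcdhac2, which serotonergic axons need in order to spread evenly, led with 9.82 ± 1.04 FPKM, while the 12 variable alpha genes ran from 0.284 FPKM for Pcdha8 to 2.55 FPKM for Pcdha12. Beta members were low, from 0.0638 FPKM for Pcdhb1 to 2.80 FPKM for Pcdhb9.

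Neighbours in the order of level mostly overlapped. When the members of a cluster were ranked by mean FPKM in the young mice, 1 of the 13 neighbouring pairs of the alpha cluster did not overlap over the 8 libraries, that between Pcdhac2 and the next gene. In the beta cluster no neighbouring pair was apart, and in the gamma cluster 2 were. In the control mice of the ALS experiment the same genes led, with Pcdhgc4 at 29.99 ± 13.6 FPKM (n = 3), Pcdhgc3 at 17.2 ± 0.670 FPKM and Pcdhac2 at 10.5 ± 0.00577 FPKM. Across the 57 members the rank correlation of young and control levels was 0.94, and within the clusters it was 0.75 over alpha, 0.91 over beta and 0.94 over gamma members, a description over genes that share clusters, transcript lengths and the same assignment of reads. Members also varied between mice of a group to different degrees. In the young libraries the coefficient of variation had a median of 24.7% over alpha genes, 17.6% over beta genes and 14.5% over gamma genes.

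**Figure D1:**
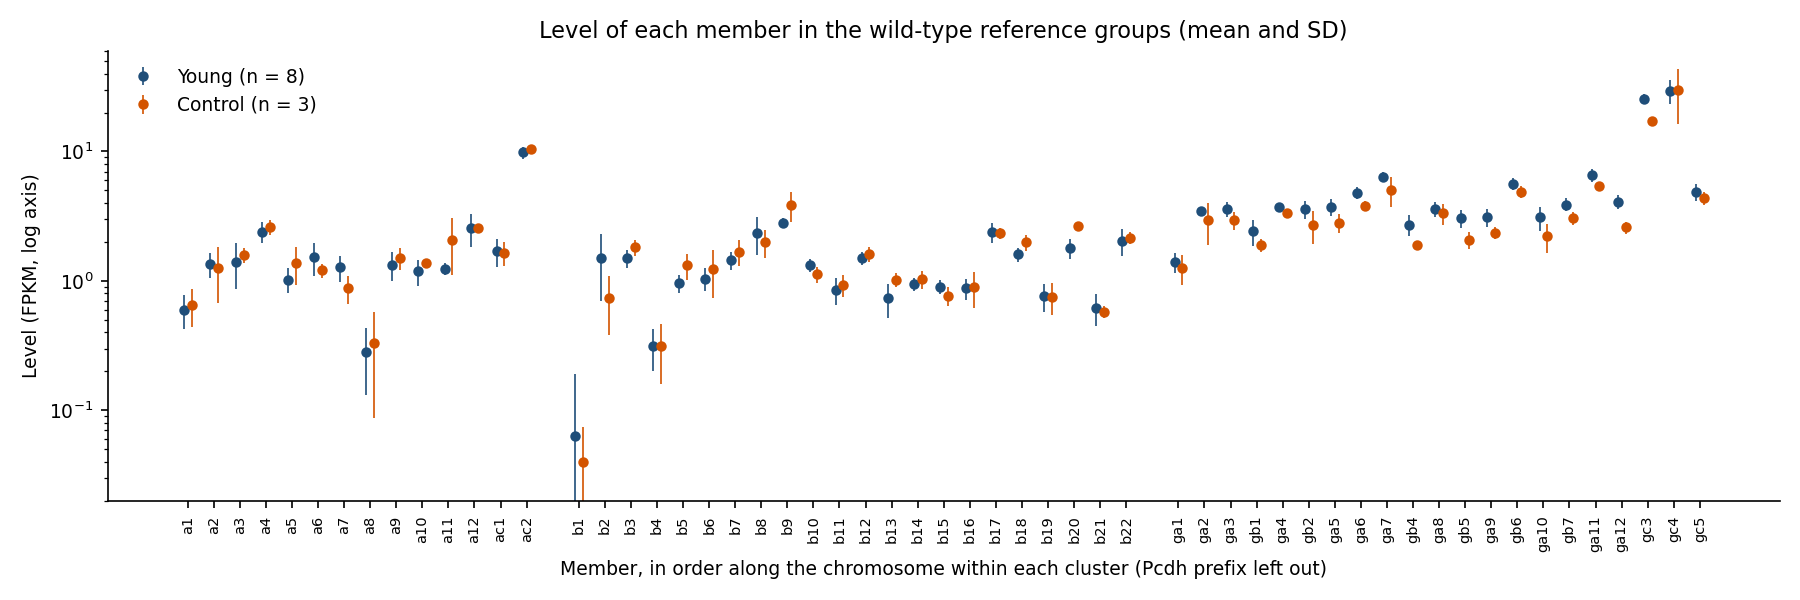
Level of each member in FPKM on a log axis in young (n = 8) and control (n = 3) wild-type mice, with members in order along the chromosome within each cluster. Points are means and bars the SD over mice, and a bar that reaches the lower edge extends to or beyond it. The gamma C-types Pcdhgc3 and Pcdhgc4 stand above 15 FPKM in both groups and Pcdhb1 below 0.1 FPKM.

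The sums over clusters, which the division of reads among members does not touch, differed with age in the beta and gamma clusters. Reads given to genes that are not members are outside the sums. Of the 50-base stretches of gamma genes, 31.0% to 46.4% also occurred in such genes, and Pcdhgb8 was not among the genes counted. From here values within a gene or sum are given in CPM, the usual scale of counts relative to library size, with library sizes scaled by TMM. The beta sum ran from 107 to 124 CPM in young mice with a median of 119 CPM, and from 141 to 172 CPM in old mice with a median of 167 CPM. Every old library was above every young one. The difference of mean log2 levels was 0.49 ± 0.04 (SE, n = 8 and 8), or 1.40-fold. The gamma sum ran from 559 to 590 CPM in young mice and from 632 to 702 CPM in old mice, again without overlap, a log2 difference of 0.24 ± 0.02 or 1.18-fold. For the alpha sum, with 143 to 172 CPM in young and 133 to 178 CPM in old mice, the groups overlapped and the log2 difference was -0.11 ± 0.06. As a result the alpha share of all clustered protocadherin counts was 18.9% ± 0.899 in young and 15.1% ± 1.21 in old mice, and the beta share 13.7% ± 0.573 and 16.5% ± 0.520. No p-value is given for a sum over members. Because whole cord was measured, fewer cells of a type and less RNA per cell cannot be told apart in any of these values.

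**Figure D2:**
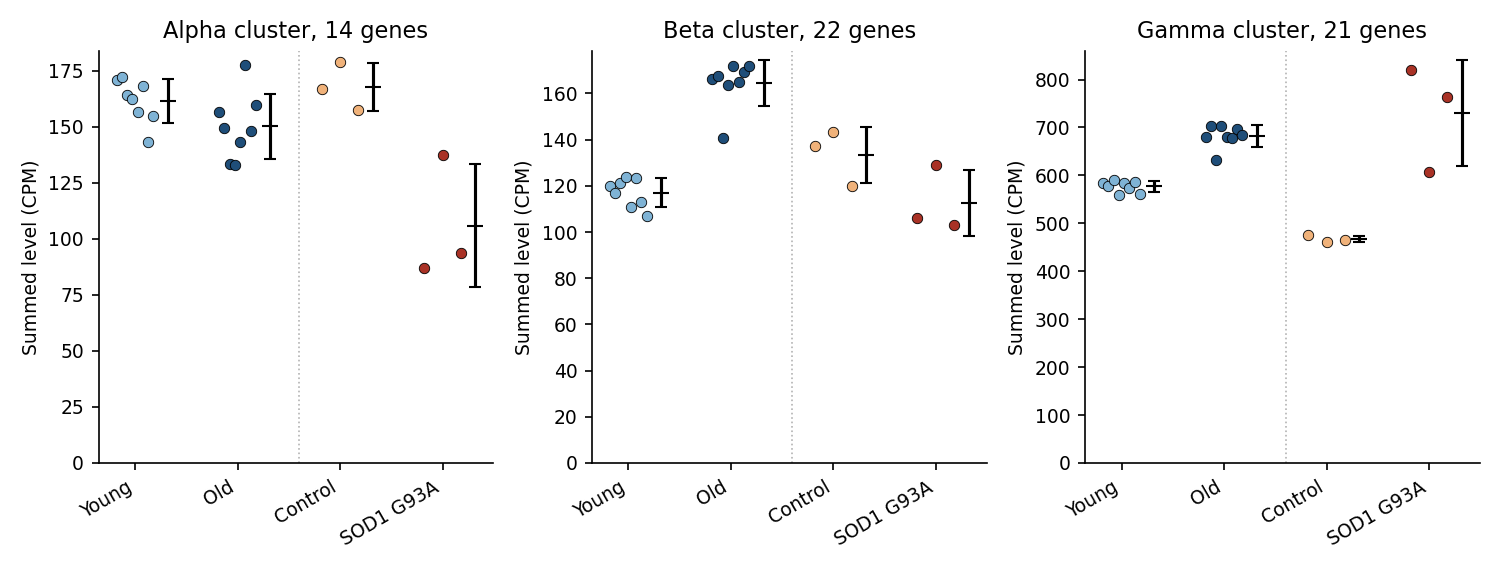
Counts summed over the members of each cluster, in CPM, with 1 point per mouse, the horizontal mark at the mean and the bar the SD. Young (n = 8), Old (n = 8), Control (n = 3) and SOD1 G93A (n = 3) are set apart by a dotted line between the 2 experiments. Every old library exceeds every young one for beta and gamma, and the SOD1 G93A libraries lie below Control for alpha and above Control for gamma.

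Of the 57 members, 56 passed the filter on low counts in the aging comparison. In edgeR's quasi-likelihood test with Benjamini-Hochberg adjustment over 13647 genes, 20 of the 56 were higher in old mice at an adjusted p under 0.05, where 13.5% of all genes tested were higher. Only Pcdha12 was lower, where 12.9% of all genes tested were lower, and 35 members did not pass. With the additional threshold of a log2 fold change beyond 1, 3 members were higher (Pcdhb8, Pcdhb5 and Pcdhb6), against 2.18% of all genes. None was lower past it in edgeR or DESeq2, also with p unadjusted, against 0.044% of all genes. In 5 members every old library was above every young one, against 3.66% of all genes, and in 0 below, against 1.66%. The median log2 fold change over the 56 members was 0.25, beside -0.0027 over all genes tested.

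The beta cluster contributed most of these calls. Of its 21 tested members 11 were higher and the median log2 fold change was 0.38. None was lower in edgeR or DESeq2, also at an unadjusted p under 0.05. Pcdhb8 (ENSMUSG00000045876, chr18:37355121-37358604) ranged from 3.28 to 5.75 CPM around a median of 5.28 CPM in young mice and from 9.55 to 15.4 CPM around 13.0 CPM in old mice. The groups did not overlap. Its log2 fold change was 1.37 ± 0.12 (SE, adjusted p = 9.41e-09), the largest of the family. Pcdhb5 (ENSMUSG00000063687, chr18:37320381-37323915) ranged from 2.83 to 4.66 CPM in young mice and from 5.11 to 9.97 CPM in old mice, also without overlap, with a log2 fold change of 1.13 ± 0.15. Pcdhb6 (ENSMUSG00000051678, chr18:37333921-37337674) ranged from 2.35 to 5.45 CPM with a median of 4.01 CPM in young mice and from 5.17 to 11.7 CPM with a median of 7.003 CPM in old mice, and the groups overlapped slightly. Its log2 fold change of 1.02 ± 0.19 lay just past the threshold, and it was below 1 in 5 of the 16 fits that left out 1 library. Like other beta proteins, these are single-exon adhesion molecules without the constant tail, and roles of their own are not well established.

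Pcdhb11 and Pcdhb2 were also higher, with log2 fold changes of 0.96 ± 0.16 and 0.89 ± 0.20 and groups that overlapped. Pcdhb3 and Pcdhb9 rose by less. Pcdhb3 went from a median of 5.85 CPM (4.97 to 7.40 CPM) in young mice to 10.9 CPM (7.25 to 13.9 CPM) in old mice, a log2 fold change of 0.87 ± 0.12. Pcdhb9, the highest beta gene per length in young but not in old mice, kept between 8.23 and 10.5 CPM in young mice. Of its 8 old libraries 3 were at 8.75 to 11.5 CPM and 5 at 17.3 to 19.1 CPM, so the groups overlapped. The log2 fold change was 0.76 ± 0.14. Among beta genes further along, Pcdhb13 ranged from 0.989 to 3.63 CPM in young and from 3.77 to 7.62 CPM in old mice, without overlap. Its log2 fold change was 0.89 ± 0.21 (adjusted p = 0.0023). Pcdhb14 and Pcdhb22 were also higher, with values of 0.31 ± 0.10 and 0.38 ± 0.12. Pcdhb12 was at 4.82 ± 0.481 CPM in young and 5.11 ± 0.914 CPM in old mice, and Pcdhb17 at 11.8 ± 2.07 and 11.5 ± 1.57 CPM. Neither Pcdhb12 nor Pcdhb17 passed the test. Pcdhb20 had a log2 fold change of 0.30 ± 0.13 (adjusted p = 0.0776). Pcdhb1 was too low to test, with at most 9 counts in any library, and 5 of 8 young libraries had 0 counts, which allows up to 3 counts or 0.329 to 0.582 CPM by counting error alone.

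**Figure D3:**
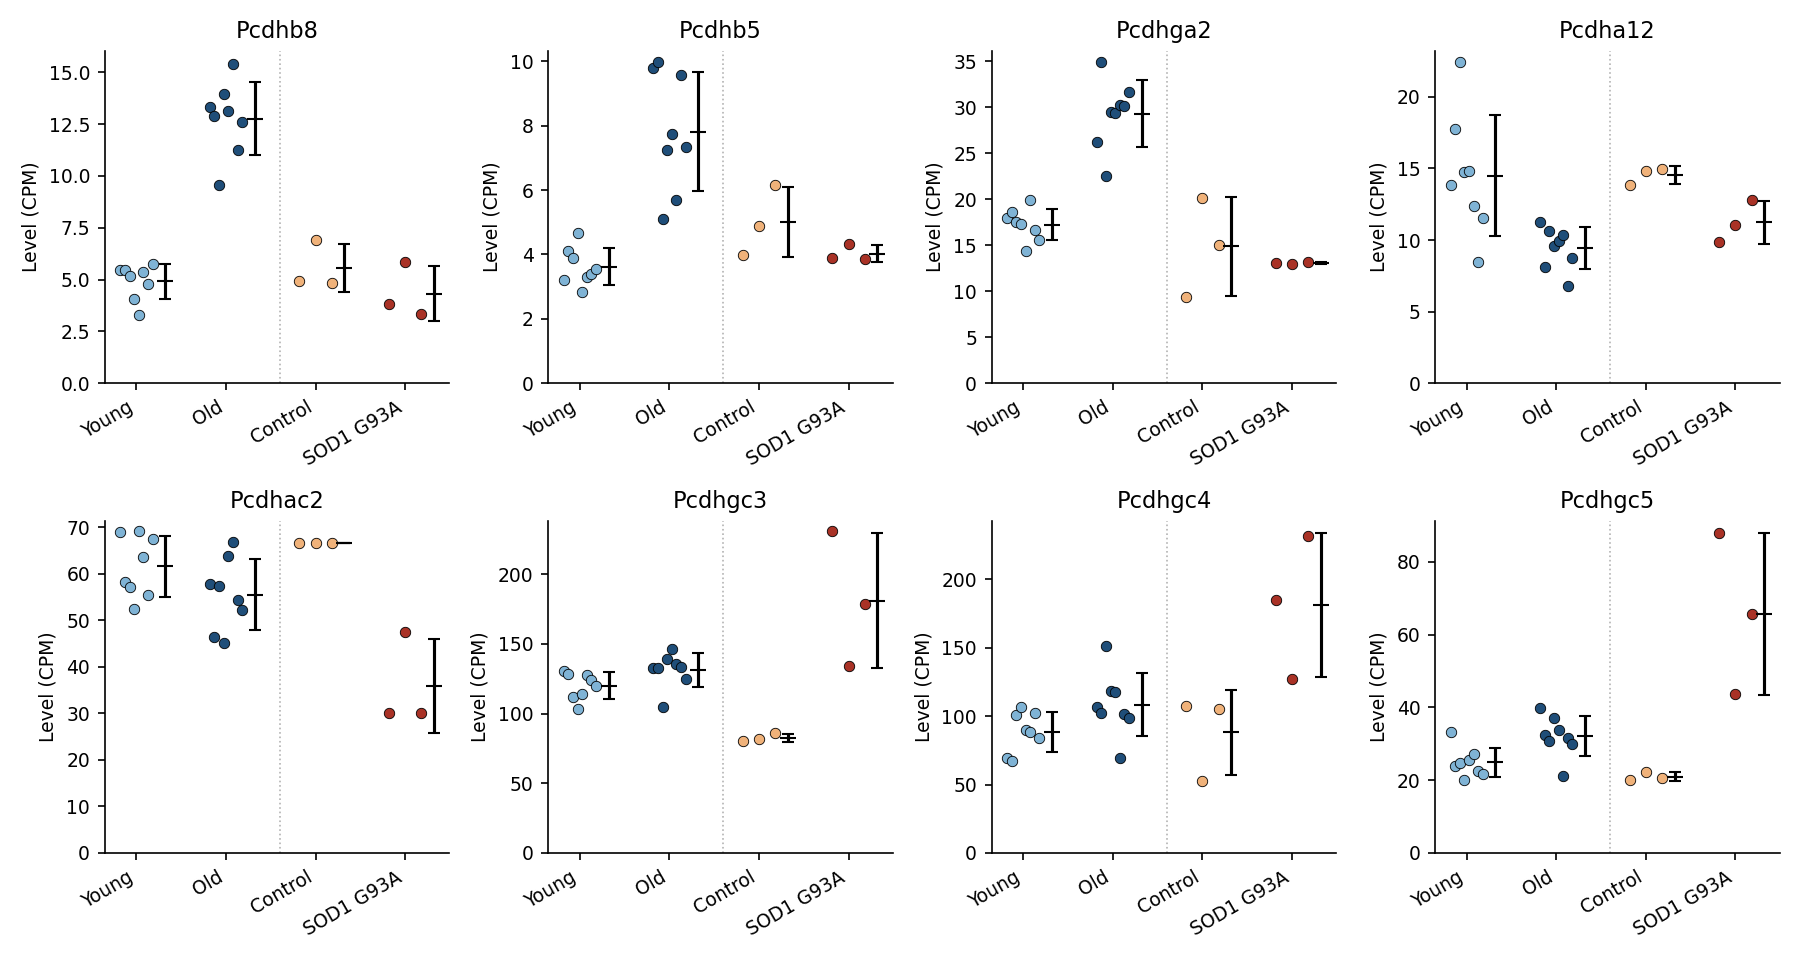
Level of 8 members in CPM, with 1 point per mouse, the mean as a horizontal mark and the SD as a bar (Young and Old n = 8, Control and SOD1 G93A n = 3). Pcdhb8, Pcdhb5 and Pcdhga2 separate old from young libraries, while Pcdhac2 and the gamma C-types Pcdhgc3, Pcdhgc4 and Pcdhgc5 separate SOD1 G93A from Control.

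The log2 fold change with age was larger, by median, for members at the start of the beta and gamma clusters. Of the 10 tested beta genes at positions 1 to 11 counted from the alpha side, 8 were higher, with a median log2 fold change of 0.88, against 3 of 11 at positions 12 to 22, with a median of 0.09. Summed, positions 1 to 11 went from 45.3 ± 2.45 CPM in young to 82.2 ± 4.89 CPM in old mice without overlap, and positions 12 to 22 from 71.8 ± 5.49 to 82.3 ± 6.45 CPM with overlap. The counts of positions 1 to 11 were 34.5% to 41.3% of all beta counts in young mice and 47.9% to 52.1% in old mice. In the control and SOD1 G93A mice of the other experiment this share was 38.3% to 40.3% and 39.1% to 41.4%. Among the 18 gamma A and B genes, 7 of 9 at positions 1 to 9 were higher, with a median of 0.37, and 1 of 9 at positions 10 to 18, with a median of 0.08. The rank correlation of position with log2 fold change was -0.63 over 21 beta genes, -0.82 over 18 gamma A and B genes and -0.60 over 12 variable alpha genes. These are descriptions over genes that share libraries and, in alpha and gamma, exons, and they carry no test. The division at the middle of a cluster was made with these values known.

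**Figure D4:**
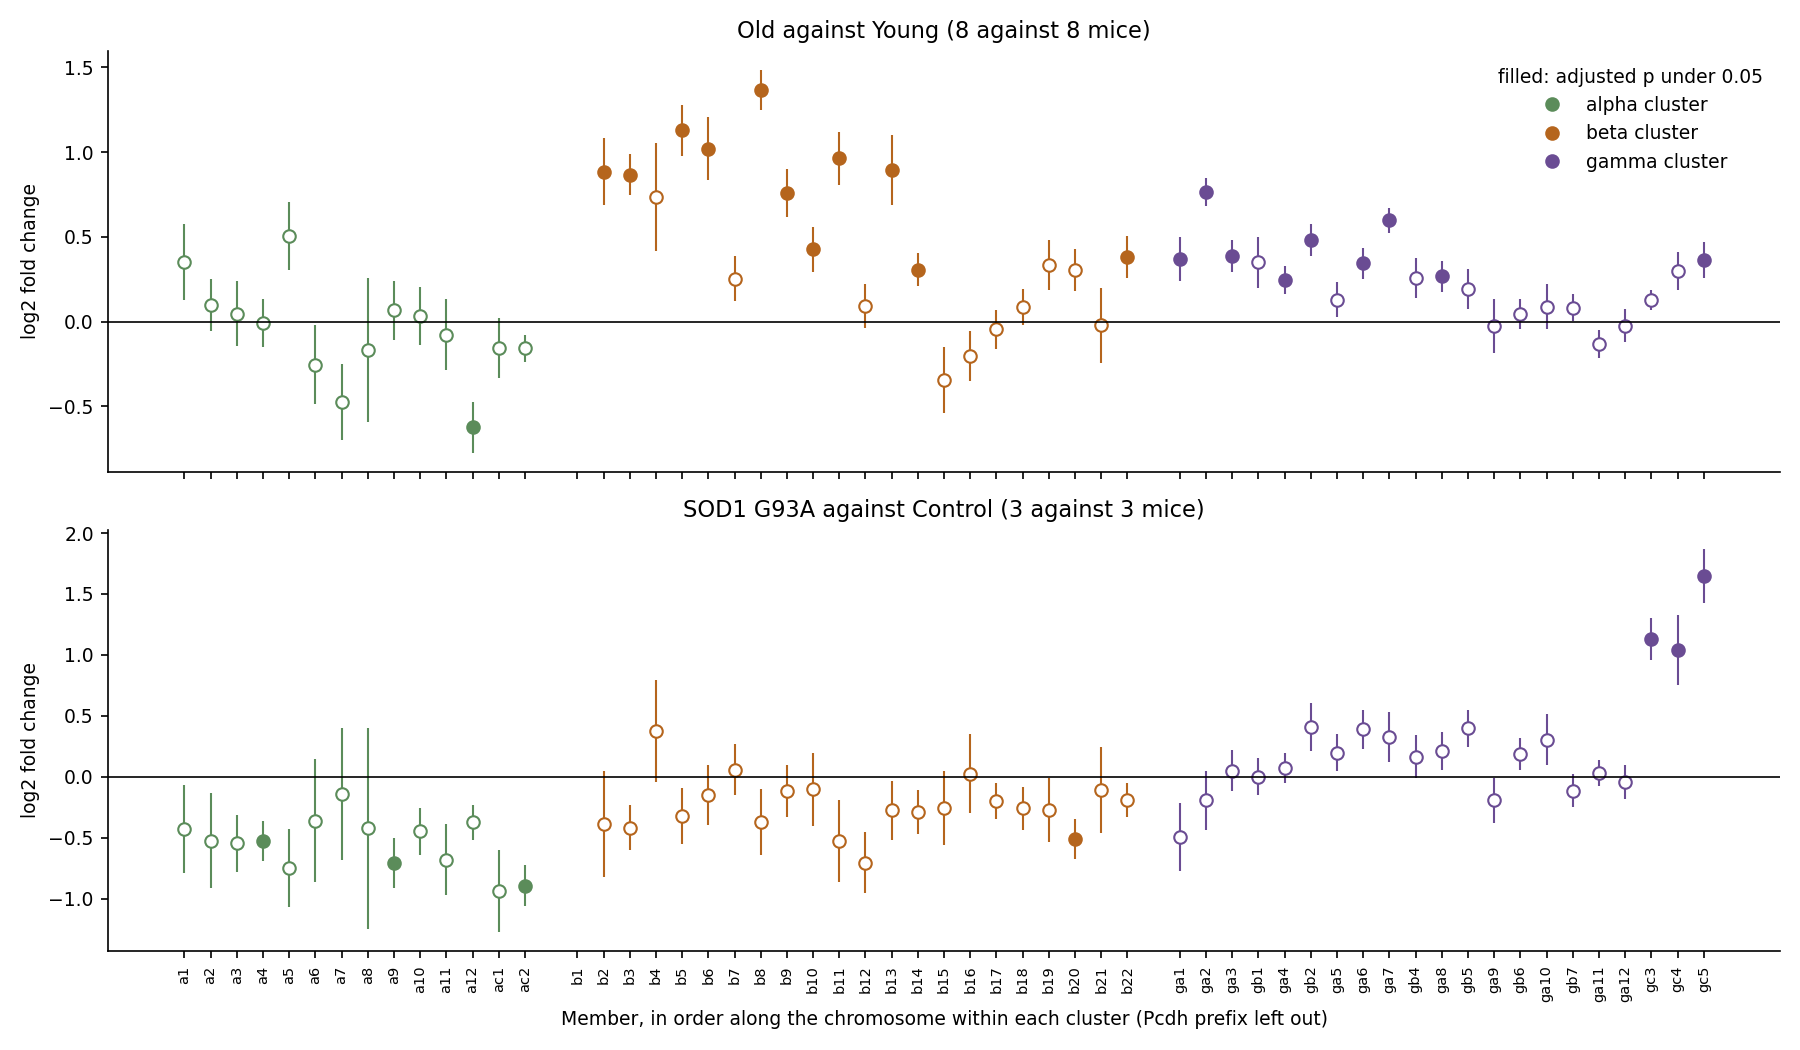
Log2 fold change of each tested member in order along the chromosome within its cluster, for Old against Young (above) and SOD1 G93A against Control (below). Points are edgeR estimates with bars of 1 SE, and filled points have an adjusted p under 0.05. With age the larger values lie at the start of the beta and gamma clusters, whereas in SOD1 G93A mice the filled points above 0 are the 3 gamma C-types at the end.

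In the gamma cluster 9 of 21 members were higher with age and the median log2 fold change was 0.26. Pcdhga2 (ENSMUSG00000103332) ranged from 14.4 to 19.9 CPM with a median of 17.4 CPM in young mice and from 22.5 to 34.8 CPM with a median of 29.8 CPM in old mice. Pcdhga7 (ENSMUSG00000103472) ranged from 27.4 to 34.3 CPM in young mice and from 41.6 to 58.6 CPM in old mice. Neither gene overlapped between the groups. Their log2 fold changes were 0.76 ± 0.08 for Pcdhga2 and 0.60 ± 0.07 for Pcdhga7. Pcdhgb2 had a log2 fold change of 0.48 ± 0.09 with groups that overlapped slightly, from a median of 17.6 CPM in young to 24.5 CPM in old mice. Pcdhga1 had one of 0.37 ± 0.13 (adjusted p = 0.0406), a call that was lost in 9 of the 16 fits that left out 1 library, and Pcdhga11 one of -0.13 ± 0.08 (adjusted p = 0.254).

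Of the 3 gamma C-types 1 was higher with age, and their median log2 fold change was 0.30. Pcdhgc5, the isoform that appears latest after birth, ranged from 20.2 to 33.1 CPM in young and from 21.1 to 39.8 CPM in old mice, with a log2 fold change of 0.36 ± 0.10 (adjusted p = 0.0123) and groups that overlapped. For Pcdhgc4, ranging from 67.4 to 107 CPM in young and from 69.7 to 152 CPM in old mice, the value was 0.30 ± 0.11 (adjusted p = 0.0565). Pcdhgc4 passed in 4 of the 16 fits that left out 1 library. Its largest value was 0.37 (adjusted p = 0.00484), without the old library at 69.7 CPM. Pcdhgc3 ranged from 103 to 130 CPM in young and from 105 to 146 CPM in old mice. Its value was 0.13 ± 0.06 (adjusted p = 0.118). It passed in 1 of those fits (0.17, adjusted p = 0.0179), without the old library at 105 CPM. The C-types made up 40.5% ± 1.49 of gamma counts in young mice and 39.9% ± 3.91 in old mice.

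The alpha cluster had no member that was higher with age in edgeR or DESeq2, and 1 at an unadjusted p under 0.05. Pcdha12 (ENSMUSG00000103310), the variable alpha gene nearest the C-types, ranged from 8.48 to 22.4 CPM with a median of 14.3 CPM in young mice and from 6.81 to 11.3 CPM with a median of 9.76 CPM in old mice. Although 7 of the 8 young libraries were above all old ones, the groups overlapped through the lowest young library. It fell by 0.62 ± 0.15 on the log2 scale (adjusted p = 0.00329). The variable alpha genes Pcdha5 and Pcdha7 had values of 0.50 ± 0.20 (adjusted p = 0.0665) and -0.48 ± 0.22 (adjusted p = 0.123), and for Pcdha4, Pcdha8 and Pcdha9 the values were -0.01, -0.16 and 0.07. Pcdhac2 had a value of -0.16 ± 0.08 (adjusted p = 0.143), from a median of 61.0 CPM in young to 55.9 CPM in old mice. This changed to -0.20 (adjusted p = 0.0418) without the old library that had the least microglial and the most neuronal marker RNA, so that 2 alpha genes were then lower. Pcdhac1 had a value of -0.15 ± 0.18.

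Marker genes of cord cell types were compared in the same libraries and fit, where 13.5% of all genes tested were higher and 12.9% lower. Summed over 11 microglial markers the level was 373 to 419 CPM in young and 653 to 1089 CPM in old mice, and 10 of 11 were higher with age. Of 15 neuronal markers 8 were lower and 1 higher with age, and their sum was 11236 to 12774 CPM in young and 9780 to 12565 CPM in old mice. Among 10 astrocyte markers 4 were higher and 2 lower, and of 10 motor neuron markers only Chodl was lower. Of 7 inhibitory neuron markers 3 were lower and 1 higher, of 10 oligodendrocyte markers 5 and 1, of 7 markers of their precursors 3 and 0 and of 7 endothelial markers 2 and 0. Of 2 tested Schwann cell markers 1 was higher. Of 6 tested fibroblast and meningeal, 5 ependymal and 5 blood markers none passed in edgeR or DESeq2. In each of those 3 lists 1 marker was higher at an unadjusted p under 0.05. Every group had counts for every listed neuronal and glial marker, whereas muscle markers summed to 1.25 to 5.38 CPM over young and old libraries. The old library with the lowest beta and gamma sums, 141 and 632 CPM, had 877 CPM of microglial and 11494 CPM of neuronal markers. Without it the beta difference was 0.52 and the gamma difference 0.26. The part of cell composition in the protocadherin values was not tested.

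Related genes were counted in the same fit, where 13.5% of all genes tested were higher and 12.9% lower. Of 11 tested protocadherins outside the clusters none was higher (0 also at an unadjusted p under 0.05 and in DESeq2) and 7 were lower, with a median log2 fold change of -0.24. Pcdh17 fell from 97.6 ± 10.9 to 68.2 ± 9.03 CPM and Pcdh9 from 209 ± 16.3 to 162 ± 23.0 CPM. Of 21 tested regulators of the clusters' promoters and chromatin, 9 were lower and, by the same measures, none higher, with a median of -0.18. Among them Nipbl, the loader of cohesin, fell from 40.7 ± 3.01 to 29.8 ± 4.87 CPM. The cohesin cofactor Pds5b fell from 82.3 ± 7.80 to 61.6 ± 5.62 CPM. Smchd1, which keeps clustered protocadherin genes silent, fell from 35.4 ± 1.75 to 29.0 ± 2.98 CPM. Ctcf did not pass, with a log2 fold change of -0.15 ± 0.06 (adjusted p = 0.077). The part of these regulators in the protocadherin values was not tested. Of 22 signalling and processing partners 3 were higher and 3 lower, near the shares of all genes. Ptk2b, the kinase Pyk2 that the constant tails bind and inhibit, rose from 9.94 ± 1.54 to 18.0 ± 1.27 CPM, a gene that microglia also express.

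In SOD1 G93A mice the cluster sums differed from control in another way. The alpha sum was 167, 179 and 158 CPM in the controls and 86.9, 137 and 93.6 CPM in the SOD1 G93A mice. All 3 SOD1 G93A libraries were lower, 1 of them by much less than the others, and the log2 difference was -0.69 ± 0.21 (SE, n = 3 and 3), or 0.619-fold. The gamma sum was 475.2, 460.8 and 466.03 CPM in the controls and 821, 608 and 764 CPM in the SOD1 G93A mice, a log2 difference of 0.63 ± 0.13 or 1.55-fold, without overlap. The beta sum was 137, 143 and 120 CPM against 106, 129 and 103 CPM. The groups overlapped and the log2 difference was -0.25 ± 0.13. Most of the gamma difference lay in the C-types. Summed, they went from 192 ± 31.1 to 428 ± 108 CPM, while gamma A genes summed to 193 ± 23.4 and 209 ± 10.4 CPM with overlap. Gamma B genes summed to 82.8 ± 2.90 and 93.9 ± 5.73 CPM without overlap, a log2 difference of 0.18 ± 0.06. Without the C-types the gamma difference was 0.14 ± 0.09. The C-types were 33.9% to 45.5% of gamma counts in controls and 50.1% to 62.3% in SOD1 G93A mice.

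Of the 56 members tested in this comparison, 3 were higher and 4 lower at an adjusted p under 0.05, where 18.4% of the 14386 genes tested were higher and 15.5% lower. The 3 higher members were also past a log2 fold change of 1, as were 8.5% of all genes. No member was lower past that threshold in edgeR or DESeq2, also with p unadjusted, against 1.2% of all genes. In 4 members every SOD1 G93A library was above every control and in 9 below, against 25.7% and 24.7% of all genes. The median log2 fold change was -0.52 over alpha, -0.26 over beta and 0.19 over gamma members, beside 0.0031 over all genes.

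The 3 higher members were the gamma C-types, which lie at the end of the cluster. Pcdhgc5 (ENSMUSG00000102543, chr18:37819513-37841873), which associates with inhibitory synapses, was at 20.02, 22.3 and 20.7 CPM in the controls and at 87.9, 43.6 and 65.6 CPM in the SOD1 G93A mice. The log2 fold change was 1.65 ± 0.22 (adjusted p = 0.00118), the largest of the family in this comparison. Pcdhgc3 (ENSMUSG00000102918, chr18:37806364-37841873) was at 80.4, 81.5 and 86.0 CPM in the controls and at 231, 134 and 178 CPM in the SOD1 G93A mice, with a log2 fold change of 1.13 ± 0.17 (adjusted p = 0.00212). All SOD1 G93A libraries were above the controls for both genes, and the same library was nearest to them. Pcdhgc4 (ENSMUSG00000023036, chr18:37815079-37841873) was more variable, with 107, 52.4 and 106 CPM in the controls and 185, 127 and 232 CPM in the SOD1 G93A mice. The estimate was 1.04 ± 0.29 (adjusted p = 0.0223), and the call was lost without the control at 52.4 CPM (0.77, adjusted p = 0.0528) or without the SOD1 G93A library at 232 CPM (0.83, adjusted p = 0.096). The other 18 gamma members did not pass. Among them Pcdhgb2 was at 13.3 ± 3.97 and 17.8 ± 0.864 CPM, Pcdhga7 at 25.6 ± 6.86 and 32.1 ± 6.52 CPM, Pcdhga11 at 27.7 ± 0.553 and 28.2 ± 3.05 CPM, Pcdhga1 at 6.02 ± 1.85 and 4.25 ± 0.676 CPM, and Pcdhga2 at 14.9 ± 5.37 and 13.0 ± 0.135 CPM.

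All 14 alpha genes had a negative log2 fold change in SOD1 G93A mice, and 3 passed the test, where 15.5% of all genes tested were lower. The signs are not independent, since alpha genes share constant exons and were measured in the same libraries. Pcdhac2 (ENSMUSG00000102697, chr18:37143503-37187657) was at 66.6, 66.6 and 66.5 CPM in the controls and at 30.1, 47.5 and 30.1 CPM in the SOD1 G93A mice. The groups were apart, with the same SOD1 G93A library nearest to the controls as for the gamma C-types. Pcdhac2 fell by 0.89 ± 0.17 on the log2 scale (adjusted p = 0.00513), and this call held in each fit that left out 1 library. Pcdha9 was at 8.61 ± 1.65 and 5.26 ± 0.617 CPM with a value of -0.71 ± 0.20 (adjusted p = 0.0267), and Pcdha4 at 13.7 ± 1.83 and 9.53 ± 1.24 CPM with a value of -0.52 ± 0.16 (adjusted p = 0.0365). The call of Pcdha4 was lost in all 6 fits that left out 1 library and that of Pcdha9 in 4 of 6. Pcdhac1 stood at 9.30, 11.9 and 7.84 CPM in the controls and at 3.90, 8.16 and 3.22 CPM in the SOD1 G93A mice, with a value of -0.94 ± 0.33 (adjusted p = 0.0582). Pcdha5, Pcdha7, Pcdha8 and Pcdha12 had values of -0.75, -0.14, -0.42 and -0.37 and did not pass.

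In the beta cluster 18 of 21 values were negative. Beside the 15.5% of all genes tested that were lower, only Pcdhb20 passed. It was at 10.1, 9.77 and 10.2 CPM in the controls and 6.61, 8.06 and 6.45 CPM in the SOD1 G93A mice, lower in all 3, with a log2 fold change of -0.51 ± 0.16 (adjusted p = 0.0372), a call lost in 5 of the 6 fits without 1 library. Pcdhb12 was at 5.21 and 3.20 CPM on average with a value of -0.71 ± 0.25 (adjusted p = 0.0566). Of the beta members higher with age, Pcdhb8, Pcdhb5, Pcdhb6, Pcdhb3 and Pcdhb9 had values of -0.37, -0.32, -0.15, -0.42 and -0.12 with adjusted p-values of 0.11 to 0.708. Pcdhb17 had one of -0.20. The rank correlations of position with log2 fold change, given with the same limits as those for age, were 0.07 over beta, 0.08 over gamma A and B and 0.09 over variable alpha genes.

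The SOD1 G93A library that lay nearest to the controls in Pcdhac2, Pcdhgc3, Pcdhgc4 and Pcdhgc5 did so too in the neuronal, astrocyte and microglial markers, though it was the farthest from them in Pcdha4. Its 15 neuronal markers summed to 8766 CPM, against 5517 and 6246 CPM in the other 2 and 12922 to 13754 CPM in the controls. Its microglial sum was 1609 CPM against 3108 and 2440 CPM, with 383 to 464 CPM in the controls, and its astrocyte sum 11754 CPM against 18548 and 16300 CPM, with 6120 to 6597 CPM in the controls. Without it, 9 members were lower and 4 higher, where 21.7% and 23.8% of the genes tested in that fit were. Of these Pcdhac2, Pcdhac1, Pcdha5 and Pcdha6 were lower past a log2 fold change of 1, against 3.09% of all genes in that fit, and Pcdhgc5 had a value of 1.87. The alpha sum difference was then -0.89 ± 0.08 and the gamma sum difference 0.76 ± 0.05.

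The marker lists were counted in the SOD1 G93A fit, where 18.4% of all genes tested were higher and 15.5% lower. Among them 14 of 15 neuronal, 8 of 10 motor neuron and 5 of 7 inhibitory neuron markers were lower in SOD1 G93A mice. None of these neuronal markers was higher, also at an unadjusted p under 0.05 and in DESeq2. The neuronal list had a median log2 fold change of -0.74 and the motor neuron list of -0.98. Chodl, a marker of fast motor neurons, went from 36.0 ± 1.22 to 4.04 ± 0.452 CPM. Of the astrocyte markers 7 of 10 were higher, of the precursor markers of oligodendrocytes 3 of 7, of the microglial markers 9 of 11, of those of fibroblasts and meninges 2 of 7 and of ependyma 3 of 5. Of 7 endothelial and 5 blood markers none passed in edgeR or DESeq2, with 3 endothelial markers lower at an unadjusted p under 0.05. Of 10 oligodendrocyte markers only Cldn11 was higher. Of 4 tested Schwann cell markers 2 were higher, and their sum was 101 to 119 CPM in controls and 137 to 322 CPM in SOD1 G93A mice. The neuronal, astrocyte and microglial sums differed from control in the same mice as the alpha sum and the gamma C-types. The oligodendrocyte and blood sums overlapped between the groups. The part of any list in the protocadherin values was not tested.

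The related lists were counted in the SOD1 G93A fit too, where 18.4% of all genes tested were higher and 15.5% lower. Of 11 tested protocadherins outside the clusters 5 were lower and none higher (0 also at an unadjusted p under 0.05 and in DESeq2), with a median of -0.50. Pcdh7 fell from 167 ± 10.8 to 113 ± 16.5 CPM and Pcdh17 from 95.3 ± 5.97 to 71.2 ± 8.55 CPM. Pcdh11x fell from 24.5 ± 0.124 to 16.1 ± 3.58 CPM. Of 22 regulators 1 was higher and 2 lower, below the share of all genes in each direction. Their median was 0.01, beside 0.0031 over all genes. The higher one was Rest, a repressor of neuronal genes, from 12.01 ± 1.58 to 16.5 ± 1.07 CPM, and the lower ones were the cohesin genes Pds5b and Smc1a. Of 22 partners 9 were higher and 5 lower. Marcks, a membrane-bound actin regulator, rose from 141 ± 7.70 to 288 ± 25.3 CPM and Ptk2b from 9.90 ± 0.610 to 28.4 ± 7.16 CPM. Aph1a, a subunit of the gamma-secretase that cleaves protocadherins, rose from 52.5 ± 5.75 to 82.4 ± 6.35 CPM.

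One edgeR fit over the 22 libraries held a term for the difference between a member's change in ALS and its change with age. Of 56 members, 2 were more positive in the ALS comparison than in aging at an adjusted p under 0.05, and 16 more negative, where 11.6% and 14.2% of 14502 genes tested were. The 2 more positive were Pcdhgc5, by 1.26 ± 0.23, and Pcdhgc3, by 0.98 ± 0.15 on the log2 scale, and for Pcdhgc4 the difference was 0.72 ± 0.28 (adjusted p = 0.0576). Of the 16 more negative, 12 were beta genes, led by Pcdhb8 with -1.77 ± 0.26, Pcdhb11 with -1.52 ± 0.33 and Pcdhb5 with -1.48 ± 0.28. Another 2 were alpha genes (Pcdha5 with -1.28 ± 0.40 and Pcdhac2 with -0.77 ± 0.17). The remaining 2 were gamma genes (Pcdhga2 with -0.99 ± 0.21 and Pcdhga1 with -0.89 ± 0.28). Age range, sex, kit and disease model all differ between the experiments, and their shares in these differences cannot be told apart.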

How the data were processed

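Whole spinal cord RNA of 22 mice was analysed (8 Young, 8 Old, 3 Control, 3 G93a). The authors aligned reads with STAR and summarised them with RSEM and samtools 1.3 on the Ensembl annotation of mm10. The authors deposited RSEM expected counts per gene, which are whole numbers as deposited, and a table of log2 values, log2 of FPKM plus 1. Whether counting used the strand is not given in the sources used here. Columns name a group but no replicate number, and all were used. No 2 libraries of a group were identical, and the chi-square per degree of freedom was at least 2.57.

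Symbols and positions came from GENCODE M21 (GRCm38). Each comparison was fitted alone with edgeR 4.0.16 in R 4.3.3 (filterByExpr at 10 counts and 15 in total, TMM, quasi-likelihood test, Benjamini-Hochberg over all genes tested). The thresholds were an adjusted p under 0.05 and, as in the paper, a log2 fold change beyond 1. SEs came from the F statistic. FPKM was recovered from the deposited log2 values. Intervals and limits of 3 counts cover counting error only, and 3 counts were 0.231 to 0.582 CPM. The procedure was tested on simulated counts with set fold changes and the same spread for every gene. No outlying library was simulated, so that test does not bear on calls among mice that differ as the G93a mice do. Alternatives used DESeq2 1.42.0, RLE factors, other filters, limma 3.58.1 on log2(FPKM + 1), 1 fit of 22 libraries and omission of each library. Summing with read-through genes added (20 counts or fewer in all) or without C-types was chosen after seeing the data.

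Members, gene lists and tests were chosen with earlier results of these data known. Members named are the C-types, in each cluster the 3 highest by FPKM in Young, the highest and lowest, the 3 with the smallest p per comparison, and any past both thresholds, with at most 3 genes per related list. Pcdha6, Pcdhb2, Pcdhb11, Pcdhb13, Pcdhb14, Pcdhb21 and Pcdhb22 and list genes that are lower in rank were picked outside this rule, with their values known.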

Additional observations from a re-analysis of the deposited data

Results flagged for a closer look

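Among 56 groups of 8 mice examined for a single library standing apart, 5 had one by Dixon's criterion at the 95% level, and chance gives about 1 in 20. For Pcdhb1 in Young, 1 library was at 1.02 CPM and the next at 0.26 CPM. For Pcdhb17 in Young, the lowest library was at 7.45 CPM and the next at 11.3 CPM. For Pcdhga1 in Old, the highest library was at 12.3 CPM and the next at 9.41 CPM. In the Old group the lowest beta sum was 141 CPM with the next at 164 CPM, and the lowest gamma sum was 632 CPM with the next at 678 CPM, both in the same library.

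For 13 of the members named by rule, the change in ALS differed from that in aging at an adjusted p under 0.05. The values are from the edgeR interaction term over 22 libraries, on the log2 scale. Of all genes tested, 11.6% were more positive and 14.2% more negative. These members were named partly by their p and fold change in the same libraries, so their count is not independent support. The difference was negative for Pcdha5 (-1.28, adjusted p = 0.0173), Pcdhac2 (-0.77, adjusted p = 0.00178), Pcdhb3 (-1.31, adjusted p = 0.000117), Pcdhb5 (-1.48, adjusted p = 0.000356), Pcdhb6 (-1.20, adjusted p = 0.0123) and Pcdhb8 (-1.77, adjusted p = 2.84e-05). It was also negative for Pcdhb9 (-0.90, adjusted p = 0.0149), Pcdhb12 (-0.82, adjusted p = 0.0147), Pcdhb20 (-0.84, adjusted p = 0.00468), Pcdhga1 (-0.89, adjusted p = 0.0192) and Pcdhga2 (-0.99, adjusted p = 0.000985). It was positive for Pcdhgc3 (0.98, adjusted p = 5.07e-05) and Pcdhgc5 (1.26, adjusted p = 0.000251).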

How the results depend on the processing

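The alternatives that keep all libraries gave 286 values over 48 fold changes of members named by rule. Of these, 272 kept their direction and side of the threshold, 8 were no longer past it, 6 were newly past it and none changed sign. With limma on log2(FPKM + 1), whose pseudocount shrinks low genes, 1 member (Pcdhb8) in place of 3 passed both thresholds with age and 1 (Pcdhac2) in place of 4 was lower in SOD1 G93A mice. As a sum of FPKM the beta difference with age was 0.60, and without C-types the gamma difference in ALS was 0.14. Leaving out 1 library at a time gave 1 to 2 members lower with age and, in ALS, 1 to 9 lower, 0 to 4 lower past both thresholds and 9 to 19 more negative than in aging. The sign of some values that did not pass turned in these fits, from -0.091 to 0.086 for Pcdha4, -0.36 to 0.023 for Pcdha8, -0.052 to 0.14 for Pcdha9 and -0.12 to 0.013 for Pcdhb17 with age, and from -0.84 to 0.34 for Pcdha7, -1.68 to 0.034 for Pcdha8, -0.43 to 0.082 for Pcdhga2 and -0.056 to 0.094 for Pcdhga11 in ALS. The cause was not tested. No paired analysis was possible because the columns of the count table carry no replicate numbers. The 3 mice of each group limit the ALS comparison, and low members such as Pcdhb1 and Pcdha8 are limited by their counts.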
